A study of Mus musculus with 29 samples.

Results

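The 9 genes of the renin-angiotensin system described here are Ren1, Agt, Ace, Agtr1a, Agtr1b, Agtr2, Mas1, Agtrap and Nr3c2, taken by symbol from the 29955 genes of an expression table of mouse ventricle. All 9 symbols were found. The C57BL6 mice were 3 months old at the start. For heart failure (HF) their drinking water held 1% NaCl and 0.3 mg/ml of L-NAME, which blocks the synthesis of nitric oxide, for 5 weeks, and a 28-day pump implanted 1 week after the start delivered angiotensin II at 0.7 mg/kg/day. Hearts were taken at week 3 (2 libraries) and week 5 (3 libraries) of this protocol. Recovery hearts had gone through the whole protocol, had then been left without drugs and were taken at week 7 (2 libraries), week 9 (2), week 11 (3), week 13 (2) and week 19 (5). Control week 19 (5 libraries) held untreated mice matched in age to Recovery week 19. The control hearts were thus taken 14 weeks later than the HF week 5 hearts, so that HF and age cannot be told apart in comparisons of these groups. The labels call the tissue whole ventricle, while the methods name the frozen apical portion of the heart. The peptide given by the pump is the end product of this system, and the question addressed was whether the transcripts that make it, sense it and relay its signal differed during the infusion and after it ended.

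Renin, encoded by Ren1, cuts angiotensinogen (Agt) into an inactive peptide that angiotensin-converting enzyme (Ace) trims to angiotensin II. The type 1 receptor, which mouse carries as the paired genes Agtr1a and Agtr1b, mediates vasoconstriction, salt retention and cardiac growth, whereas the type 2 receptor (Agtr2) and the Mas receptor (Mas1), which binds a shorter angiotensin peptide, are known for opposing actions. Agtrap encodes a protein that binds the type 1 receptor and promotes its internalisation, and Nr3c2 encodes the mineralocorticoid receptor, the target of the aldosterone that angiotensin II releases from the adrenal gland. In the heart Ace sits mainly on endothelial cells, and most circulating renin and angiotensinogen come from kidney and liver.

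The Agtr1a and Agtr1b sequences are shown because all type 1 receptor values below rest on assigning fragments to the right one of the pair. Over 1080 coding bases, taken as the longest open reading frame of the GENCODE transcripts of GRCm38, they differ at 99 bases and are 90.8% identical. A stretch near the end of the reading frame, coding bases 964 to 1023, holds 13 of the differing bases, printed in capitals.
Agtr1a: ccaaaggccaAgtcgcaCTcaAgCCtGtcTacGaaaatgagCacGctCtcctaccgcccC
Agtr1b: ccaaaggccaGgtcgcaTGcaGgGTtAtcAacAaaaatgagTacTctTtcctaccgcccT
Of the 1031 stretches of 50 bases in the Agtr1a reading frame, 33 (3.2%) also occur in Agtr1b, and of the 981 stretches of 100 bases 0 do. The read length is not given in the sources used here.

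The 250 bases before the annotated start were read from RefSeq (GRCm38.p6, a later build than that of the deposited values) for 8 of the 9 genes, and those of Agtr1a were not in that table. They are printed for the 3 genes that make angiotensin II, renin, its substrate and the converting enzyme, 5′ to 3′ on the strand of the gene, with matches to TATAAA or GGGCGG on either strand in capitals.
Ren1, chr1:133350424-133350673, plus strand: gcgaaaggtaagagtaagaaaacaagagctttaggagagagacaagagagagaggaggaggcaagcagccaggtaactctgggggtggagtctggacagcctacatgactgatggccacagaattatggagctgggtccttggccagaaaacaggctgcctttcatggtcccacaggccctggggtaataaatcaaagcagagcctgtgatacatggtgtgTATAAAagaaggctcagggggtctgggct
Agt, chr8:124569707-124569956, minus strand: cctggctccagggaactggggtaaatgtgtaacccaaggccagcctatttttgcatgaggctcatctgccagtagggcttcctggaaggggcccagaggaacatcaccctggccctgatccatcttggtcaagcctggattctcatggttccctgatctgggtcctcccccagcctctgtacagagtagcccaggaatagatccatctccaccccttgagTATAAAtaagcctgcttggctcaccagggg
Ace, chr11:105967698-105967947, plus strand: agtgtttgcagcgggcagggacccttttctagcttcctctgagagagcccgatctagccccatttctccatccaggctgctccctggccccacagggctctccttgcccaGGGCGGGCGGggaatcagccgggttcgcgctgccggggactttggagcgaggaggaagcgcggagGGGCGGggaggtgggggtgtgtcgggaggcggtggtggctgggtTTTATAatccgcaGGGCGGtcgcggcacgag
The letters TATAAA, the core of the TATA box, were found once each in the windows of Ren1, Agt, Agtr1b and Ace (in Ace as TTTATA, on the other strand), and in 12.4% of all 32851 promoter windows of the same length. GGGCGG, the core of the GC box, was found 4 times in Ace and 3 times in Nr3c2, and in 32.7% of all windows at least once. The letters AGAACA, the half-site of steroid hormone receptors, were in none of the members' windows and in 16.1% of all windows. Ace has a further annotated start at which none of the 3 motifs was found.

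Expression was measured in FPKM, fragments scaled to transcript length and to the fragments of the library, so that levels of different genes can be set side by side on that scale. Over the 24 libraries the mean level was 29.5 FPKM for Ace, 10.7 for Agtr1a, 9.08 for Agtrap, 3.96 for Agt, 0.721 for Nr3c2, 0.444 for Mas1, 0.162 for Ren1, 0.00255 for Agtr2 and 0 for Agtr1b. Ace thus stood at percentile 92.7 of the whole table and Agtr1a at percentile 85.1. The limma test on log2(FPKM + 0.5) took in the 12759 genes whose mean reached 0.5 FPKM, among them 5 of the 9 members, Agt, Ace, Agtr1a, Agtrap and Nr3c2. A gene was called at a Benjamini-Hochberg adjusted p under 0.05 over all genes tested, and for genes at low FPKM the added 0.5 makes log2 fold changes smaller than the true ones. The labels do not say that each library is a separate animal, so the p-values measure the spread between these libraries.

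Some libraries stood apart, and the values below are given with that in view. In HF week 3 library 1 only 12816 genes were above 0, where each of the other libraries had 16339 to 18091, and the 2 HF week 3 libraries correlated across genes with r = 0.885. HF week 5 library 1 correlated with the other 2 of its group with r = 0.956 and 0.952, and those with each other with r = 0.984. Library 5 of Control week 19 had r of 0.972 to 0.979 with the others of its group, which had 0.988 to 0.991 among themselves, and library 5 of Recovery week 19 had 0.962 to 0.978 where the others had 0.978 to 0.99. Relative depth, read from the steps between low values, ranged from 0.729 to 1.4 over 23 libraries. Myh6, the main myosin gene of adult ventricle, was listed at 0 in all libraries of Control week 19, HF week 5 and Recovery week 19, whereas it took 14.2% to 27.0% of the FPKM in HF week 3 library 2 and in Recovery weeks 7 to 13, and 4.88% in HF week 3 library 1. An exact 0 in this table can therefore be a failed estimate. Comparisons across this divide are HF week 3 and Recovery weeks 11 and 13 against control, HF week 5 against HF week 3, and Recovery weeks 7 and 9 against HF week 5. Of marker lists for other cell types, the 5 adipocyte markers summed to 0.0798 to 0.31 FPKM in control and to at most 1.12 in recovery, but to 224 and 94.5 in HF week 3 and to 240, 211 and 1.66 in HF week 5 libraries 1 to 3. The 4 mesothelial markers summed to 1.85 to 3.28 in control, to 47.4 and 182 in HF week 3 and to 70.9, 25.4 and 10.2 in HF week 5. The 5 atrial markers summed to 89.6 to 349.0 in control, to 7737 and 14050 in HF week 3, to 81734, 2515 and 2229 in HF week 5 and to 173.0 to 2435 in recovery. Every library of Recovery weeks 7 to 13 was above the control range, at 361.0 or more and highest in week 9 (1083 and 2435), and so were 2 of the 5 of Recovery week 19 (482.0 and 752.0). Nppa, which is also induced in stressed ventricle, had a lowest value of 2100 FPKM in HF week 5, while those of Myl7, Sln and Myl4 in that group were 6.16, 1.28 and 8.05, and Nppa was listed at 0 in HF week 3. In recovery Nppa made up most of the atrial sum, with a mean of 1751 FPKM in week 9. The means of Myl7, Sln and Myl4 there were 1.65, 0.765 and 5.41, against 0.76, 0.587 and 5.0 in control. No recovery library had more than 3.56 FPKM of Myl7, 1.7 of Sln or 8.17 of Myl4.

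Agtr1a, the receptor gene that carried all of the measured type 1 receptor signal, was lower in HF than in control, and its levels in each recovery group overlapped those of control. The 5 Control week 19 libraries had 14.0, 13.8, 14.4, 11.1 and 9.55 FPKM. HF week 3 had 0.865 and 2.56 FPKM and HF week 5 had 3.66, 7.87 and 5.96 FPKM. Every HF library thus lay below every control library, and both HF week 3 libraries lay below all those of HF week 5. Recovery week 7 had 12.7 and 14.3 FPKM, Recovery week 9 had 10.7 and 14.3, and Recovery week 11 had 11, 10.7 and 11.1. Recovery week 13 had 15.5 and 11.8 FPKM and Recovery week 19 had 13.7, 11.4, 14.5, 11.1 and 9.75. Each recovery library was above every HF library, and 1 library each of Recovery weeks 13 and 19 was above the highest control library. In the order of group means the neighbours from Recovery week 13 (13.6 FPKM) down to Recovery week 11 (11) overlapped, and HF week 5 (5.83) and then HF week 3 (1.71) stood apart below them.

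**Figure D1:**
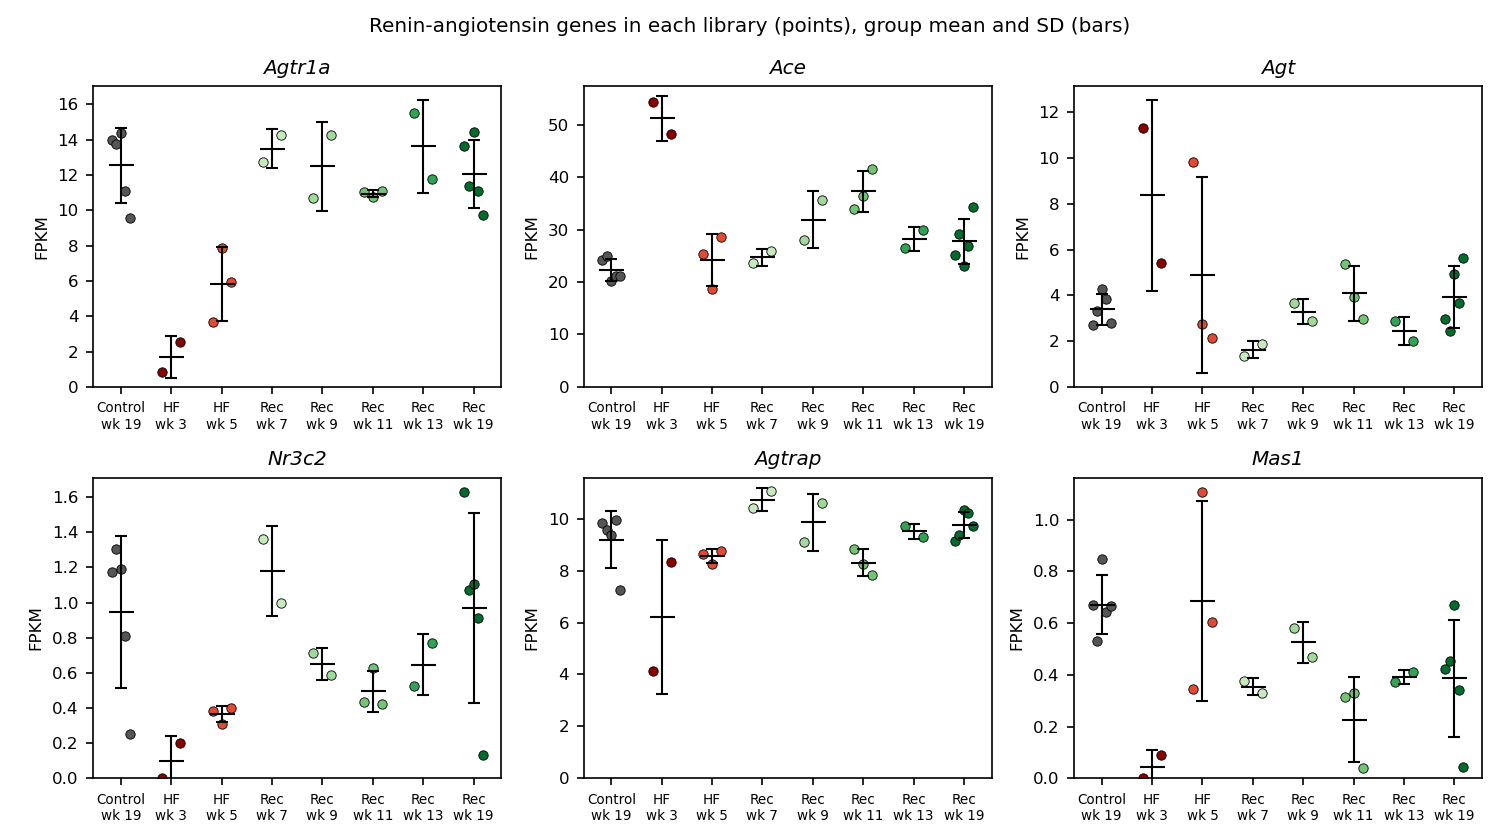
FPKM of 6 renin-angiotensin genes (y axes, linear) in each of 24 libraries by group (x axis, Rec for Recovery, wk for week); points are libraries, the long bar is the group mean and the whiskers are 1 SD, which in groups of 2 rests on those 2 values. Agtr1a lies between 0.865 and 7.87 in the 5 HF libraries and above 9 in all others, while Ace is highest in HF week 3.

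Compared to Control week 19, Agtr1a in HF week 5 was 5.83 ± 2.10 (SD, n = 3) against 12.5 ± 2.12 FPKM (SD, n = 5), a log2 fold change of -1.08 (SE 0.231, 95% interval -1.57 to -0.60, adjusted p = 0.00265 by limma). It was the only member called in this comparison, in which 24% of all genes tested were called, and the only one of the 5 tested whose groups did not overlap, against 29.5% of all genes. The value without HF week 5 library 1, the library with the highest adipocyte and atrial sums, was -0.81 (adjusted p = 0.0354), the highest adjusted p of 17 alternatives (4.02e-04 to 0.0354). Library 3, whose adipocyte markers summed to 1.66 FPKM, had 5.96 FPKM of Agtr1a, below every control library. Of the cardiomyocyte markers, Pln was lower in HF week 5 (395.0 to 1243 FPKM) than in control (1418 to 1566), while Ttn, Ryr2, Tnnt2, Tnni3 and Actn2 overlapped control. Dilution of ventricular RNA by other tissue and less Agtr1a RNA per cell cannot be told apart in bulk tissue, and the part of these and the other marker lists in the result was not tested.

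Recovery week 19 was compared with HF week 5 for the change after the drugs were withdrawn, with the same HF libraries as in the comparison above. The Recovery week 19 hearts were also taken 14 weeks later than those of HF week 5, so that withdrawal and age cannot be told apart. Agtr1a rose to 12.1 ± 1.94 FPKM (SD, n = 5), a log2 fold change of 1.03 (SE 0.231, 95% interval 0.55 to 1.52, adjusted p = 0.00366 by limma). No other member tested was called, with 24.2% of all genes called. Agtrap joined Agtr1a in having no overlap between these groups, 2 of 5 members against 26.7% of all genes. The rise was already there in Recovery weeks 7 and 9 as 1 group, with a log2 fold change of 1.14 against HF week 5 (SE 0.241, adjusted p = 0.00349), again for this member alone, with 18.5% of all genes called. Without HF week 5 library 1 the value for week 19 was 0.76 (adjusted p = 0.0438) and that for weeks 7 and 9 was 0.87 (adjusted p = 0.0374).

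Against its age-matched control, Recovery week 19 showed no difference in Agtr1a beyond the spread, with a log2 fold change of -0.05 (95% interval -0.47 to 0.37, adjusted p = 1). None of the 5 members was called between these groups by limma, and 3 genes (0.0235%) of all those tested were. At an unadjusted p under 0.05, 2.88% of all genes and 1 member passed, namely Ace.

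HF week 3 had the lowest Agtr1a of all groups, 1.71 FPKM (SD 1.20, n = 2), and the log2 fold change against control was -2.66 (SE 0.264, 95% interval -3.21 to -2.11, adjusted p = 4.19e-07). All 5 members tested were called in this comparison, 2 higher and 3 lower, and so were 50.7% of all genes (23.1% higher and 27.6% lower), so the number of members called is to be read against that share. The groups did not overlap for 4 of the 5, Agtrap being the exception, and for 45.3% of all genes. Leaving out HF week 3 library 1, which showed fewer genes, gave -2.08 for Agtr1a (adjusted p = 4.34e-05) and leaving out library 2 gave -3.24 (adjusted p = 2.08e-08). From HF week 3 to HF week 5 Agtr1a was higher by 1.57 on the log2 scale (SE 0.288, adjusted p = 0.00255), with 21.4% of all genes called. That difference was 0.99 (adjusted p = 0.131) without HF week 3 library 1, and the adjusted p was 0.533 when only these 5 libraries were fitted.

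**Figure D2:**
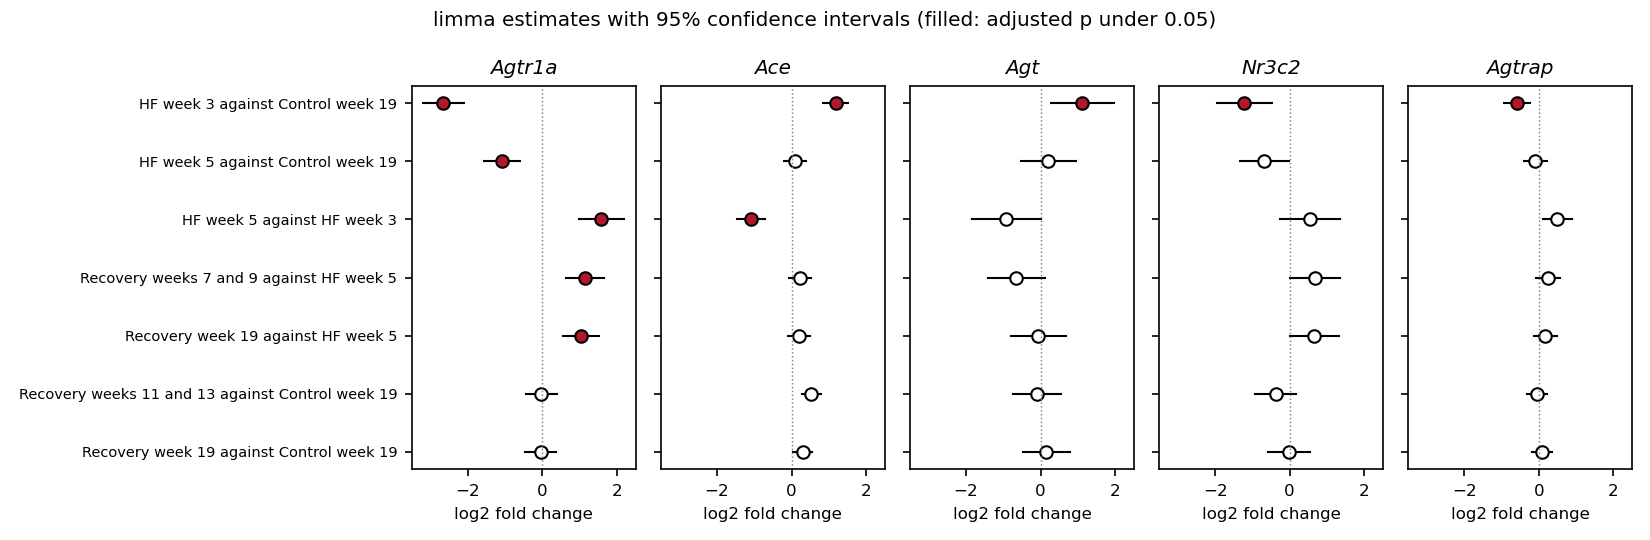
Log2 fold change (x axis, linear) with its 95% confidence interval for the 5 members tested in 7 comparisons (y axis), from limma; filled points have an adjusted p under 0.05. Agtr1a is at -2.66 and -1.08 in HF week 3 and week 5 against control, and the points of all 5 members are open in Recovery week 19 against control.

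Agtr1b was listed at 0 FPKM in all 24 libraries. How the authors' counting treated fragments from the stretches that the pair has in common is not stated, so Agtr1b may hold fragments that were given to Agtr1a. Agtr2 was above 0 in 3 libraries, with 0.0205 FPKM in Control week 19 library 5, 0.0183 in HF week 5 library 2 and 0.0226 in Recovery week 11 library 1. These values give no basis for a comparison between groups.

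Mas1, with a mean of 0.444 FPKM, fell just short of the level required for the test, whereas Nr3c2 with 0.721 passed it. The control libraries had 0.67, 0.531, 0.846, 0.644 and 0.668 FPKM, HF week 3 had 0 and 0.0911, and HF week 5 had 0.345, 1.11 and 0.605. HF week 5 spanned the control values on both sides, while both HF week 3 libraries were below them. Recovery week 7 had 0.377 and 0.331 FPKM and Recovery week 9 had 0.581 and 0.47, the first of which lay within the control range. Recovery week 11 had 0.315, 0.329 and 0.0381 FPKM, Recovery week 13 had 0.373 and 0.41, and Recovery week 19 had 0.423, 0.454, 0.669, 0.341 and 0.0435. All 5 libraries of Recovery weeks 11 and 13 lay below the lowest control library, where 5.01% of the genes tested had no overlap between weeks 11 and 13 and control. So did both libraries of week 7, 1 of week 9 and every library of Recovery week 19 except that with 0.669 FPKM. In the fit without a filter on low values, over 22107 genes, Mas1 had a log2 fold change of -1.10 in HF week 3 against control (adjusted p = 0.00226), -0.55 in Recovery weeks 11 and 13 (adjusted p = 0.325) and -0.44 in Recovery week 19 (adjusted p = 1). The value for HF week 5 against control was -0.03 (adjusted p = 1). The Mas1 gene is overlapped by the antisense transcript Airn, with 0 exon bases in common in the GENCODE annotation, and whether the counting used strand is not stated.

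Ace, the converting enzyme, was highest in HF week 3 and indistinguishable from control in HF week 5. The control libraries had 24.1, 25.0, 20.2, 21.2 and 21.2 FPKM, HF week 3 had 54.3 and 48.2, and HF week 5 had 25.3, 18.7 and 28.6. Both HF week 3 libraries were above every other library of the series, and HF week 5 spread around the control range. Recovery week 7 had 23.6 and 25.9 FPKM, Recovery week 9 had 28.0 and 35.7, Recovery week 11 had 33.9, 36.3 and 41.6, and Recovery week 13 had 26.5 and 29.9. Recovery week 19 had 25.2, 29.2, 23.1, 26.9 and 34.3 FPKM. The highest recovery level was thus that of week 11, and in the order of group means Recovery week 11 (37.3 FPKM) did not overlap HF week 3 (51.2) above it but did overlap Recovery week 9 (31.9) below it.

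The log2 fold change of Ace in HF week 3 against control was 1.18 (SE 0.161, 95% interval 0.85 to 1.52, adjusted p = 1.24e-05 by limma), and 1.10 to 1.27 with any 1 library left out. Against control HF week 5 had 0.10 (95% interval -0.20 to 0.39, adjusted p = 0.658), and in HF week 5 against HF week 3 it was -1.09 (SE 0.176, adjusted p = 0.00103), which became an adjusted p of 0.533 when only these 5 libraries were fitted. The 5 endothelial markers summed to 171.0 to 193.0 FPKM in control, whereas the HF week 3 libraries had 240.0 and 319.0, the HF week 5 libraries 252.0, 199.0 and 264.0, and those of Recovery week 11 between 163.0 and 180.0. Endothelial sums were thus above the control range in HF week 3 where Ace was higher and also in HF week 5 where Ace was not, and were within or below it in Recovery week 11. The markers did not move alike, since in HF week 3 Emcn averaged 101.0 FPKM against 32.8 in control, Pecam1 73.5 against 45.7 and Tie1 60.8 against 39.0, while Cdh5 lay on both sides of the control range (19.6 and 52.0 against 39.8 to 49.4) and both libraries had less Kdr (7.76 and 9.13) than any control library (14.1 to 18.1). Fibroblast markers in HF week 3 summed to 378.0 and 475.0 FPKM against 201.0 to 302.0 in control. Macrophage markers summed to 190.0 and 175.0 against 89.5 to 167.0. The part of these marker lists in the Ace result of HF week 3 was not tested.

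Recovery weeks 11 and 13 together had 33.7 FPKM of Ace against 22.3 in control, with no overlap between the 5 libraries of each side. The 5 fibroblast markers summed to 322.0 to 580.0 FPKM in these recovery libraries against 201.0 to 302.0 in control, and the 5 macrophage markers to 182.0 to 307.0 against 89.5 to 167.0, also without overlap. In HF week 5, where Ace overlapped control, the fibroblast sums were 575.0, 291.0 and 509.0 and the macrophage sums 215.0, 117.0 and 168.0. The part of these lists in the Ace values was not tested. No overlap was seen for 1 of the 5 members and for 5.01% of all genes. The log2 fold change was 0.53 (SE 0.123, 95% interval 0.27 to 0.78, adjusted p = 0.0906), which did not pass the adjusted threshold, as 18 genes (0.141%) did. The adjusted p was 0.0148 when only these groups were fitted. When FPKM were taken relative to each library without its 10 highest genes, Ace was 35.0 in Recovery week 11, 24.1 in Recovery week 13 and 23.6 in control. On that scale the week 13 mean was nearer to control and the week 11 mean remained the higher of the pair. In Recovery week 19 the log2 fold change against control was 0.30 (95% interval 0.04 to 0.55), with an unadjusted p of 0.0239 and an adjusted p of 1 by limma. Exons of Ace share 295 bases (5.58%) with the antisense gene Gm11651 in the GENCODE annotation.

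Agt, the precursor of all angiotensin peptides, was above the control range in 3 of the 5 HF libraries. Control week 19 had 2.7, 3.33, 4.3, 3.82 and 2.79 FPKM, HF week 3 had 11.3 and 5.42, and HF week 5 had 9.83, 2.73 and 2.11. HF week 5 thus held 1 library above the control range, 1 within it and 1 below it. The lowest group was Recovery week 7 with 1.36 and 1.88 FPKM, which lay below every library of control, HF and Recovery week 19. Recovery week 9 had 3.68 and 2.9 FPKM, Recovery week 11 had 5.37, 3.92 and 2.97, Recovery week 13 had 2.89 and 2.02, and Recovery week 19 had 2.95, 2.44, 4.94, 3.66 and 5.65.

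In HF week 3 against control Agt had a log2 fold change of 1.12 (SE 0.4, 95% interval 0.29 to 1.96, adjusted p = 0.0254 by limma), which was 0.62 (adjusted p = 0.374) without HF week 3 library 1. For HF week 5 it was 0.21 (95% interval -0.52 to 0.94, adjusted p = 0.703), and without HF week 5 library 1 it turned to -0.40. The libraries with the most Agt, HF week 3 library 1 and HF week 5 library 1, also had high adipocyte sums (224 and 240 FPKM), but HF week 5 library 2 had an adipocyte sum of 211 with 2.73 FPKM of Agt. The part of adipose tissue in the Agt values was not tested. The 4 hepatocyte markers summed to at most 2.31 FPKM in any library, a sum reached in HF week 3 library 1, which also had the most Agt. Albumin (Alb) was at 0.215 to 2.31 FPKM in HF week 3, listed at 0 in all libraries of control and HF week 5, and at most 0.0847 in recovery. The other hepatocyte markers were not higher in HF week 3. There Ttr averaged 0.334 FPKM against 0.432 in control, Apoa1 0.155 against 0.17, and Serpina1a was listed at 0 in both groups. In HF week 5 Ttr averaged 1.21 FPKM and Apoa1 0.395. The part of hepatocyte RNA in the Agt values was not tested.

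**Figure D3:**
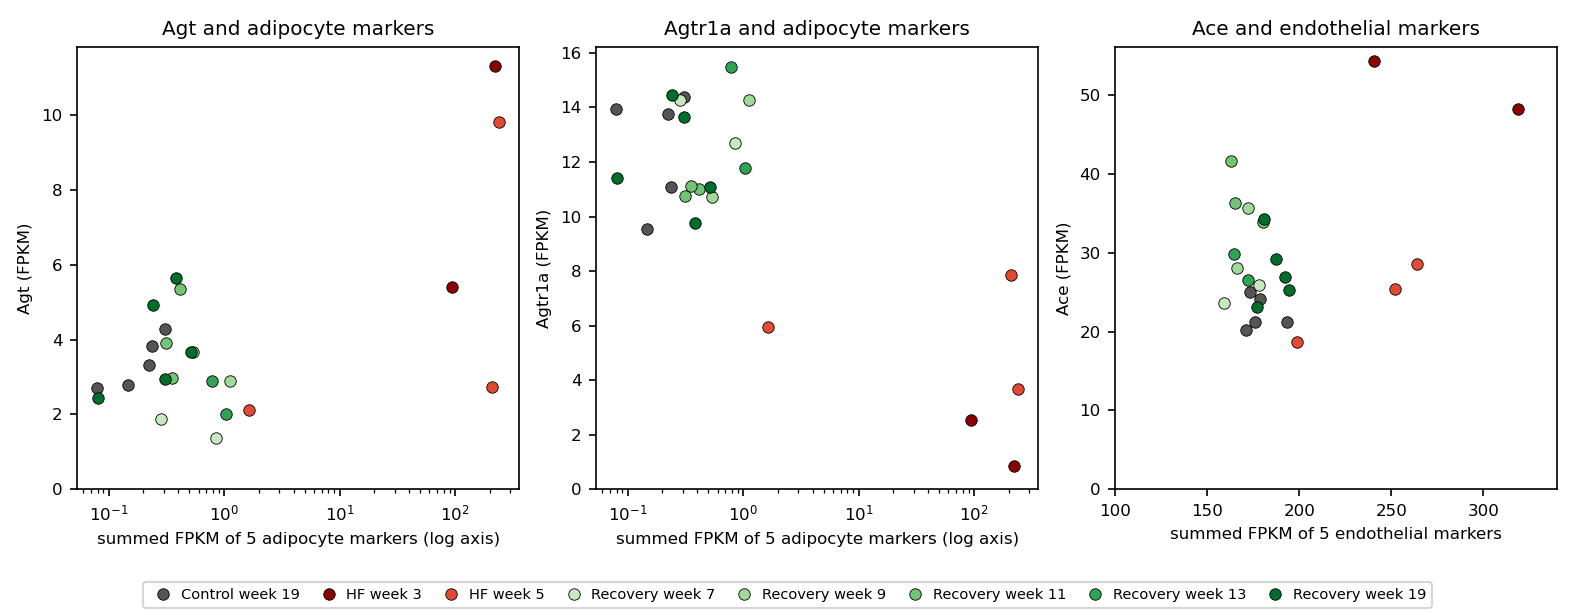
Level in FPKM (y axes, linear) of Agt and Agtr1a against the summed FPKM of 5 adipocyte markers (log axis) and of Ace against that of 5 endothelial markers (linear axis starting at 100), each point a library coloured by group. Of the 5 HF libraries, 4 have adipocyte sums of 94.5 to 240 and 1 has 1.66, and Agtr1a is below 8 in all 5.

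Ren1, the renin gene, was above 0 in 6 of the 24 libraries. It was listed at 0 in all 5 control libraries, at 3.1 and 0.0299 FPKM in HF week 3 and at 0.348, 0.297 and 0 in HF week 5. The remaining values above 0 were 0.0502 in Recovery week 11 library 3 and 0.0573 in Recovery week 19 library 5. The 4 HF libraries with Ren1 above 0 were those with adipocyte sums of 94.5 FPKM or more, and the HF library with 0 was that with 1.66. That library also had the lowest mesothelial (10.2) and atrial (2229) sums of the HF libraries. Recovery week 11 library 3 and Recovery week 19 library 5, with Ren1 above 0, had adipocyte sums of 0.35 and 0.386. The part of adipose or other tissue in these values was not tested. In the fit without a filter Ren1 had an adjusted p of 0.0101 in HF week 3 against control, where its difference rests on the 3.1 FPKM of library 1, and 0.426 in HF week 5. No fold is given, since all control libraries are listed at 0.

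Agtrap, the partner protein of the type 1 receptor, was measured in all 24 libraries. Its lowest group mean was 6.22 FPKM (HF week 3) and its highest 10.7 (Recovery week 7), with single libraries from 4.12 to 11.1. The HF week 3 libraries had 4.12 and 8.32 FPKM, against 9.82, 9.58, 9.39, 9.94 and 7.25 in control. Only library 1 of HF week 3 lay below the control range. The log2 fold change of -0.59 (SE 0.167, adjusted p = 0.0065 by limma) was -0.13 (adjusted p = 0.515) without that library. With 8.64, 8.27 and 8.77 FPKM in HF week 5, the log2 fold change was -0.09 (95% interval -0.40 to 0.22, adjusted p = 0.69).

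Nr3c2, the mineralocorticoid receptor, was low throughout and lower in HF by its group means. The control libraries had 1.18, 1.31, 1.19, 0.808 and 0.252 FPKM, HF week 3 had 0 and 0.201, and HF week 5 had 0.383, 0.312 and 0.399. HF week 5 lay below 4 of the 5 control libraries and above the fifth. Recovery week 7 had 1.36 and 0.999 FPKM, Recovery week 9 had 0.713 and 0.585, Recovery week 11 had 0.432, 0.628 and 0.423, and Recovery week 13 had 0.523 and 0.769. Recovery week 19 had 1.63, 1.07, 1.1, 0.912 and 0.135 FPKM, so that 1 library in each of the week 19 groups was far below the rest.

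The log2 fold change of Nr3c2 in HF week 5 against control was -0.68 (SE 0.309, 95% interval -1.32 to -0.03), with an adjusted p of 0.118 by limma that became 0.0232 without Control week 19 library 5 (log2 fold change -0.90). In Recovery week 19 against HF week 5 it was 0.66 (adjusted p = 0.124), and 0.94 (adjusted p = 0.0096) without Recovery week 19 library 5. In each of these comparisons 15 of 16 alternatives left Nr3c2 uncalled. The highest adjusted p by limma was 0.237 (without HF week 5 library 1) in the first and 0.251 (without Recovery week 19 library 1) in the second. HF week 3 against control gave -1.22 (SE 0.354, adjusted p = 0.00767), which was -0.98 (adjusted p = 0.115) without HF week 3 library 1 and -0.78 (adjusted p = 0.0659) after quantile normalization. With a pseudocount of 0.1 it was -2.44 (adjusted p = 0.00306), so that the size of the fold change at these low levels depends on the pseudocount. Exons of Nr3c2 share 247 bases (3.82%) with the antisense gene Gm10649.

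Other genes of the pathway were taken from 3 lists. The mineralocorticoid axis list holds steroid-synthesis enzymes, prereceptor enzymes, the glucocorticoid receptor, chaperones and target genes. Against control, HF week 5 had 0 of the 12 genes tested (of 18) higher and 6 lower, with a median log2 fold change of -0.65, where 11.6% of all genes were called higher and 12.4% lower and their median was 0.04. The largest difference was in Zbtb16, a transcription factor induced by corticosteroids, with a mean of 9.45 FPKM (SD 3.38) over the 5 control libraries and 1.96 (SD 0.337) over the 3 of HF week 5, which is -1.95 on the log2 scale (SE 0.385, adjusted p = 0.00154 by limma). Hsd11b1, which regenerates active glucocorticoid, fell by 1.00 on the log2 scale (adjusted p = 0.0109), and Sgk1, a kinase induced by both corticosteroid receptors, fell by 0.73 (adjusted p = 0.0136). The chaperones of the unliganded receptors were also lower, Fkbp4 by a log2 fold change of -0.75 (adjusted p = 0.00338) and Hsp90ab1 by -0.56 (adjusted p = 0.0328). The lower genes named here thus hold an enzyme, chaperones and targets of both corticosteroid receptors, and the targets are known to respond to other signals too. HF week 3 against control went both ways, with 3 of the 12 higher and 5 lower and a median of -0.30, where 23.1% of all genes were called higher and 27.6% lower. There the steroid targets Fkbp5 (1.76, adjusted p = 8.55e-04 by limma) and Tsc22d3 (1.62, adjusted p = 1.48e-04) and also Lcn2 (1.76, adjusted p = 0.00231) were higher on the log2 scale, Hsd11b1 (-2.59, adjusted p = 2.46e-06) and the steroid target Zbtb16 (-1.22, adjusted p = 0.0273) were lower, and Sgk1 had -0.20 (adjusted p = 0.495). In Recovery week 19 against HF week 5, which shares the HF libraries, 6 of the 12 were higher and 0 lower, with a median of 0.68 where 12.3% and 12% of all genes were called and the median was -0.04, for example Zbtb16 with 2.15 (adjusted p = 7.32e-04) and Hsd11b1 with 1.17 (adjusted p = 0.00404). Without HF week 5 library 1, 4 genes were lower against control (Sgk1, Per1, Zbtb16 and Fkbp4) and 5 higher in recovery, where all genes had 4.21% higher and 6.45% lower against control and 6.9% higher and 5.27% lower in recovery. Hsd11b1 and Hsp90ab1 thus lost their calls against control and Per1 gained one. Against control, Recovery week 19 had 0 of 12 called. Zbtb16 averaged 4.9 FPKM in Recovery week 7, 5.65 in week 9, 7.51 in week 11 and 1.36 in week 13. Both libraries of Recovery week 13 (1.26 and 1.45) were below the lowest of HF week 5 (1.64), so its low level was not confined to HF. Of the adrenal steroid synthesis genes, Cyp11b2 was listed at 0 in every group, and Cyp11b1 in every group but HF week 3, whose mean was 0.00897 FPKM.

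The list of AT1 receptor coupling holds G proteins, phospholipases, arrestins and regulators. Of 20 genes 19 were tested, and in HF week 5 against control 3 were higher and 1 lower, with a median of 0.04. This is 4 of 19 called, near the 24% of all genes (11.6% higher and 12.4% lower). Gna12, a G protein alpha subunit, had a mean of 29.2 FPKM (SD 9.35) over the control libraries, the lowest at 13.3, and of 5.23 (SD 1.31) over those of HF week 5, with a difference of -2.32 on the log2 scale (SE 0.477, adjusted p = 0.00211 by limma). The arrestins, which uncouple the activated receptor from its G protein, were higher, Arrb1 by 0.82 (adjusted p = 0.00404) and Arrb2 by 0.62 (adjusted p = 0.008). Rcan1, a feedback inhibitor of calcineurin, was higher in HF week 5, at 52.4 FPKM (SD 5.92) against 31.4 (SD 4.29), by 0.73 on the log2 scale (adjusted p = 0.00221). In Recovery week 19 against HF week 5, 2 were higher and 3 lower, near the 12.3% and 12% of all genes, among them Gna12 with 2.52 (adjusted p = 0.00115), Rgs5, a regulator of G protein signalling of pericytes, with 1.10 (adjusted p = 0.0178), and Rcan1 with -0.78 (adjusted p = 0.0014). Gna12, Arrb1 and Rcan1 were also called against control without HF week 5 library 1, and Arrb2 was not, while Rgs2 and Rgs4 were called in addition. In recovery Gna12 and Rcan1 kept their calls without it, Rgs5, Arrb1 and Arrb2 lost theirs, and Rgs2 was gained.

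Of the other angiotensin peptidases and receptors, 0 of the 15 tested (of 21) were higher in HF week 5 than in control and 2 were lower, with a median of -0.04, where 11.6% of all genes were called higher and 12.4% lower. Mme, the peptidase neprilysin, which degrades natriuretic peptides and angiotensins, averaged 0.778 FPKM (SD 0.134) in the control libraries and 0.341 (SD 0.0827) in those of HF week 5, with a difference of -0.60 on the log2 scale (SE 0.201, adjusted p = 0.0354 by limma). Igf2r, the mannose 6-phosphate receptor that takes up prorenin, had -0.39 (adjusted p = 0.0386). Neither was called without HF week 5 library 1. In Recovery week 19 against HF week 5 Mme was higher by 0.72 (adjusted p = 0.0136) and none of the 15 was lower. Without HF week 5 library 1, limma called 0 of the 15 there, and 1 had an unadjusted p under 0.05. No gene of the 3 lists was called by limma in Recovery week 19 against control, and 1 peptidase or receptor gene, 0 coupling genes and 0 mineralocorticoid axis genes had an unadjusted p under 0.05, beside 0.0235% of all genes called and 2.88% at that unadjusted p.

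**Figure D4:**
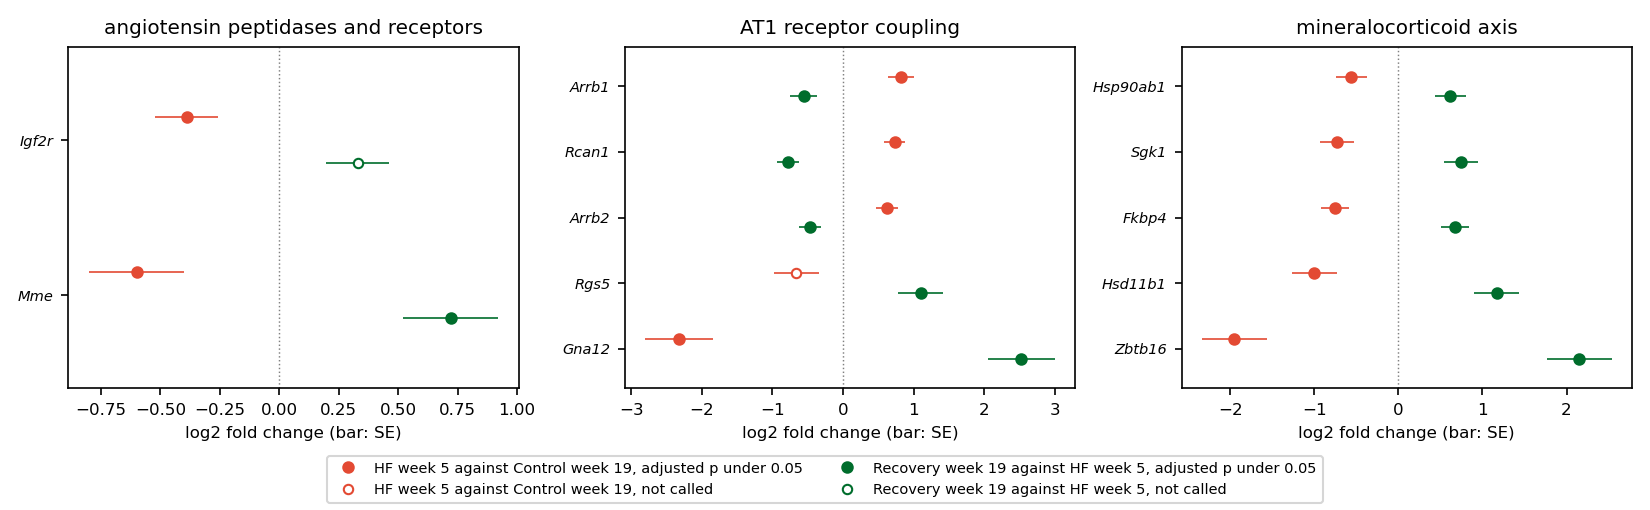
Log2 fold change (x axes, linear) with its SE for the called genes of 3 pathway lists that are named in the text (y axes), in HF week 5 against Control week 19 (red) and Recovery week 19 against HF week 5 (green); filled points have an adjusted p under 0.05 by limma. The 2 comparisons share the HF week 5 libraries, so that opposite signs are partly given by the design. In the mineralocorticoid axis the 5 genes drawn are lower in HF, from -0.56 to -1.95.

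The genes whose log2 values followed each member most closely over the 24 libraries were named by Pearson's r, as a description across libraries that share group, depth and composition. For Agtr1a these were Nnt (r = 0.977), Pdha1 (0.976) and Fgf13 (0.975), of which the first 2 encode mitochondrial enzymes. Over the 19 libraries without HF the same pairs had r = 0.53, 0.411 and 0.70, so that the likeness rested largely on the HF libraries. Fgf13, for example, averaged 22.6 FPKM in control, 4.04 and 9.17 at weeks 3 and 5 of HF and 22.0 at Recovery week 19. For Nr3c2 the 3 genes were Ankrd11 (0.948), Hdac4 (0.916) and Ndst1 (0.912), and without HF these had 0.931, 0.894 and 0.865. For Ace they were B3gnt8 (0.909), the collagen gene Col6a1 (0.895) and Matn2 (0.852), with 0.908, 0.832 and 0.787 without HF. For Agt they were Cdkn1a (0.847), Il4ra (0.826) and Lrg1 (0.806), and for Agtrap Llgl2 (0.935), Patz1 (0.928) and Kcnn1 (0.921). Without HF these had 0.753, 0.558 and 0.701 for Agt and 0.748, 0.828 and 0.773 for Agtrap. Among the members themselves Agtr1a was closest to Agtrap (r = 0.798) and Nr3c2 (0.719), and had r = -0.657 with Agt and -0.574 with Ace. Without HF these were 0.588, 0.611, -0.254 and -0.306.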

How the data were processed

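RNA of mouse ventricle, enriched for poly(A) tails, had been sequenced from both ends. The authors aligned the reads with TopHat to MGSCv37 (mm9) and computed the deposited FPKM with Cuffdiff, in 1 column per library. The annotation, strand setting and scaling between libraries are not given in the sources used here, and the absolute depth is unknown, so precision is stated as the spread between libraries and no counting error is given.

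The table also has 5 columns named for week 5 controls. Since only 4 samples have that label, these 5 columns of per-sample values were left out, and Control week 19 took the place of the planned week 5 control, and 24 libraries entered the fit. Recovery week 9 has 2 columns for 3 labelled samples. Recovery weeks count from the start of induction, 5 weeks more than in the labels. Libraries are numbered by column, with no link to a labelled animal.

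The 12759 genes whose mean reached 0.5 FPKM were fitted as log2(FPKM + 0.5) with limma 3.58.1 in R 4.3.3, with 1 mean for each of 8 groups, eBayes with trend, 16 residual degrees of freedom, two-sided tests and Benjamini-Hochberg adjustment. The study's methods use a p under 0.05 and name no adjustment, and single genes are judged here by the adjusted p. On simulated data for HF week 5 against Control week 19 over 12759 genes, 72% of the genes given a log2 change of 1 and 96% of those given a change of 2 were recovered. The changed genes were drawn from those with a mean log2(FPKM + 0.5) above 1, which leaves out low genes such as Nr3c2. The noise was normal with 1 SD per gene for all groups, so a library that stands apart from its group was not simulated. Tables and figures were made with Python 3.11.15, pandas 2.3.3 and matplotlib 3.10.9. Coding sequences and exon overlaps came from GENCODE (GRCm38) and promoters from RefSeq (GRCm38.p6).

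The members, the pathway and marker lists and the tests were chosen with earlier results of these data known. All members were named; of each list, up to 6 genes with an adjusted p under 0.05 in HF week 5 against control or Recovery week 19 against HF week 5, in order of the size of the first fold change; and for each tested member the 3 genes with the highest Pearson r. Alb, Myh6, Per1, Rgs2, Rgs4, Fkbp5, Tsc22d3, Lcn2, Cyp11b1, Cyp11b2 and single atrial, endothelial, cardiomyocyte and hepatocyte markers were named outside this rule, after their values were seen. List counts and medians run over all genes of a list, of which some are not reported here by name. Alternatives were other pseudocounts (0.1 and 1), no filter or a mean of at least 1 FPKM, median centring, quantile normalization, only the groups compared, leaving out each library and, for levels, FPKM relative to each library's sum without its 10 highest genes. Removal of GC and length trends, a fit without HF week 3 and list counts without HF week 5 library 1 were added after seeing the data.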

Additional observations from a re-analysis of the deposited data

Results flagged for a closer look

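The effects on Ace and Agtr1a against control differed between the 2 HF time points by a contrast of the difference itself in limma. For Ace the effect at HF week 5 minus that at HF week 3 was -1.09 on the log2 scale (adjusted p = 0.00103), and for Agtr1a it was 1.57 (adjusted p = 0.00255). Both rest on the 2 HF week 3 libraries, and the adjusted p was 0.533 for each when only the HF libraries were fitted.

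Groups of 5 libraries were checked for 1 library far from the other 4 by Dixon's criterion, which chance meets in about 1 in 20 groups. Of 14 groups, 1 with values above 0 throughout met it, Agtrap in Control week 19, where library 5 had 7.25 FPKM and the others 9.39 to 9.94. Ren1 in Recovery week 19 (0.0573 FPKM in library 5) and Agtr2 in Control week 19 (0.0205 FPKM in library 5) also met it, but the other 4 libraries were listed at 0 there, so that any value above 0 meets the criterion and that rate does not apply.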

How the results depend on the processing

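Over 35 fold changes of the 5 tested members, 535 of 572 alternative values kept direction and side of the threshold, 8 lost and 9 gained a call and 20 changed sign. Of 72 group means, 10 moved by more than 1 SD when FPKM were taken relative to each library without its 10 highest genes. The sign of every called fold change held in all alternatives. No paired analysis was possible because the columns carry numbers and not the letters of the sample titles. Sign changes concerned values near 0 or with wide intervals. With median centring Agt in Recovery week 19 against HF week 5 and Agtr1a in Recovery weeks 11 and 13 against control became 0.00, and with quantile normalization Nr3c2 in HF week 5 against HF week 3 became -0.03. Leaving out 1 library at a time gave, in HF week 5 against control, -0.40 to 0.59 for Agt and -0.03 to 0.27 for Ace; in Recovery week 19 against HF week 5, -0.44 to 0.55 for Agt; in Recovery week 19 against control, -0.14 to 0.02 for Agtr1a and -0.23 to 0.26 for Nr3c2; and in Recovery weeks 11 and 13 against control, -0.19 to 0.02 for Agt and -0.12 to 0.07 for Agtr1a. Agtrap in HF week 3 against control kept its fold change of -0.59 but not its call (adjusted p = 0.106) when only these groups were fitted.

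Counts of all genes called moved more. Leaving out 1 library gave 1355 (without HF week 5 library 1) to 3652 in HF week 5 against control, 1545 to 3255 in Recovery week 19 against HF week 5, 3 to 5 in Recovery week 19 against control, 3830 to 7995 in HF week 3 against control, 166 to 6743 in HF week 5 against HF week 3, 923 to 2582 in Recovery weeks 7 and 9 against HF week 5 and 7 to 47 in Recovery weeks 11 and 13 against control. With only the groups compared, the counts were 4192 in HF week 3 against control, 8 in HF week 5 against HF week 3 and 575 in Recovery weeks 11 and 13 against control. Without the HF week 3 group they were 3730 in Recovery weeks 7 and 9 against HF week 5 and 78 in Recovery weeks 11 and 13 against control, where no filter gave 10 and quantile normalization 33. The cause of these shifts was not tested. Median centring changed the percentage of called genes that were higher from 48.4% to 37.4% in HF week 5 against control and from 52.9% to 65.4% in Recovery weeks 7 and 9 against HF week 5.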
